A study of Saccharomyces cerevisiae with 6 samples.

Results

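The 10 genes described here encode the enzymes of the tricarboxylic acid (TCA) cycle that carry 2-oxoglutarate to oxaloacetate in the mitochondria of budding yeast (Saccharomyces cerevisiae): KGD1, KGD2, LSC1, LSC2, SDH1, SDH2, SDH3, SDH4, FUM1 and MDH1. They were chosen by name from the 6151 open reading frames with a value in all conditions, and all 10 had one. Wild-type (WT) cells of strain UCC1899 were treated for 6 h with 30 µg/ml ethidium bromide, a dye that makes cells lose mitochondrial DNA (mtDNA), and were compared 3, 11, 19 and 27 h later with cells of that strain that kept their mtDNA. Strain UCC3980, homozygous for ATP1-111, a mutant form of a subunit gene of mitochondrial ATP synthase (ATP1, alpha subunit), received the same treatment and was compared at 27 h with its own mtDNA-containing control. In strain UCC3970 the essential gene NAR1, needed for iron-sulfur cluster assembly in the cytosol, was switched off by moving cells from 50 to 2 nM estradiol, and 27 h later these cells were set against a culture left at 50 nM. All cultures grew in YEPD, a rich glucose medium, and no label says that the NAR1 strain received ethidium bromide.

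The late TCA cycle begins with 2-oxoglutarate dehydrogenase, passes through succinyl-CoA ligase, succinate dehydrogenase and fumarase, and ends with malate dehydrogenase. Succinate dehydrogenase is at the same time complex II of the respiratory chain, and all of its subunits come from nuclear genes, so it does not need mtDNA for its own parts. In yeast without respiration the first TCA enzymes, up to isocitrate dehydrogenase, are known to come under the retrograde factors Rtg1 and Rtg3, while many genes of the later steps and of the respiratory chain are known targets of the Hap2/3/4/5 activator.

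Each condition was deposited as 1 ratio per gene, treated over control, averaged by the authors over 6 arrays from 3 biological replicates (5 arrays for ATP1-111), so the ratios themselves carry no replicate error. Standard errors (SE) come from a limma fit over all genes in which the 4 WT columns scatter about a straight line in time. The adjusted p-values below are limma's, after Benjamini-Hochberg adjustment over the 6151 genes, and a change was called at an adjusted p under 0.05. ATP1-111 and NAR1 repression are single columns and were tested as if they varied like the WT columns. The deposited ratio of 1 spot, already averaged over arrays, had an SD between 0.151 and 0.239 on the log2 scale across the 13 genes spotted in duplicate. Median ratios per column lay between 0.96 and 1.02. The NAR1 transcript itself stood at a ratio of 0.031 in the NAR1 column and between 0.979 and 2.25 in the other columns, and ATP1 lay between 0.671 and 0.932 throughout. The NAR1 value matches the label of its column, whereas the ATP1 ratio compares 2 cultures of one genotype and does not check the allele.

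Transcripts of 3 succinate dehydrogenase subunits, SDH1, SDH2 and SDH3, were the lowest of the 10 in WT cells at 27 h. SDH1, the flavoprotein subunit that oxidises succinate, had ratios of 0.49, 0.521, 0.416 and 0.293 at 3, 11, 19 and 27 h, which is 3.41-fold lower than the control at the last point. Only 0.439% of genes had a ratio at or below that of SDH1 at 27 h. Its level was already low at the first time point and moved little between 3 and 11 h.

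SDH3, the cytochrome b-type membrane anchor, declined at every step, with ratios of 0.694, 0.582, 0.463 and 0.344. SDH2, the iron-sulfur subunit, followed with 0.675, 0.643, 0.553 and 0.39. SDH4, which forms the anchor together with SDH3, stayed closer to the control at 0.803, 0.892, 0.819 and 0.564. All 4 subunits were thus below 1 at all 4 times, and each had its lowest WT ratio at 27 h.

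SDH3 fell with time by the limma test (slope -1.01 on the log2 scale per 24 h, SE 0.15, adjusted p = 0.0289). The slopes of SDH1 (-0.77, SE 0.22, adjusted p = 0.0979), SDH2 (-0.78, SE 0.19, adjusted p = 0.0694) and SDH4 (-0.50, SE 0.24, adjusted p = 0.24) did not pass. With columns scaled to equal spread, the slope of SDH1 turned to 0.12 and that of SDH3 shrank to -0.36 (adjusted p = 0.274), and SDH3 also missed the threshold when any 1 of the WT columns was left out (adjusted p between 0.0525 and 0.11). Averaged over the 4 times, all subunits lay below the control, SDH1 furthest (mean log2 level -1.25, SE 0.08, adjusted p = 0.00138) and SDH4 least (-0.40, SE 0.09, adjusted p = 0.0203).

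**Figure D1:**
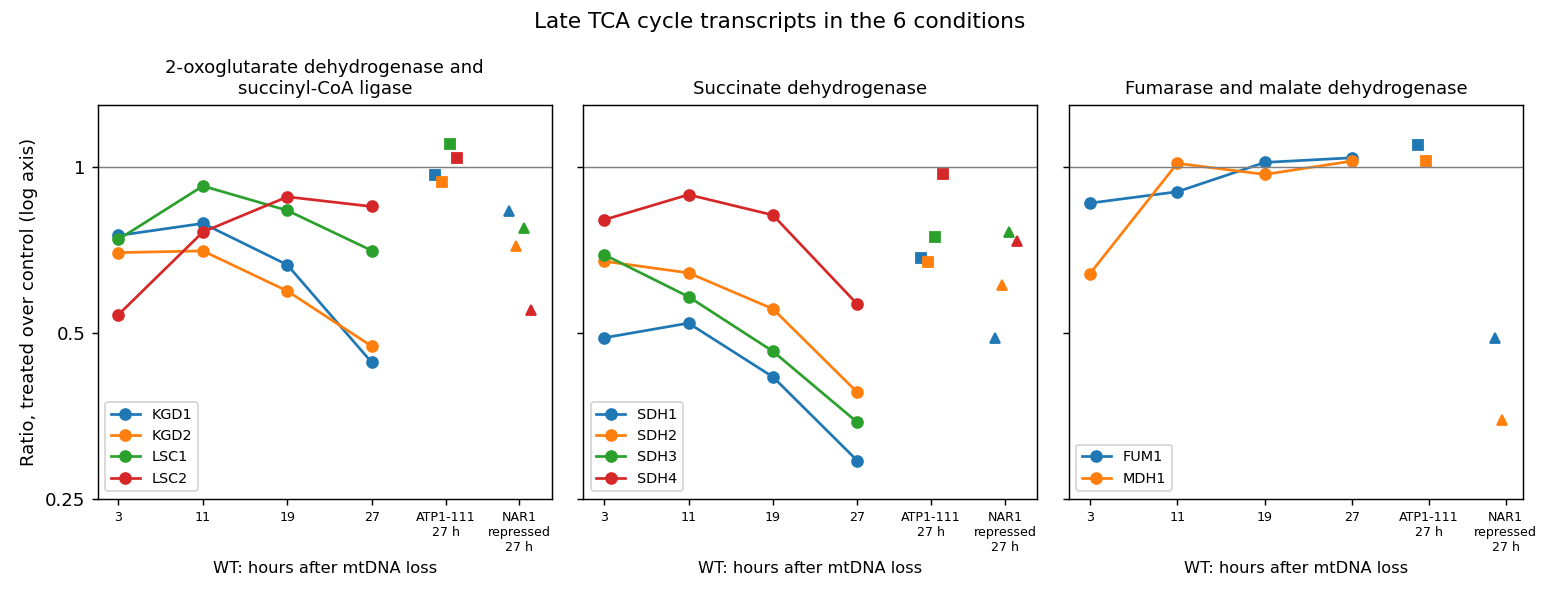
Ratio of treated over control cells (log axis) for the 10 genes; circles joined by lines are WT at 3, 11, 19 and 27 h, squares ATP1-111 at 27 h and triangles NAR1 repression at 27 h, and the grey line marks a ratio of 1. Each point is the authors' average and has no error bar; SDH1, SDH2 and SDH3 reach 0.293, 0.39 and 0.344 in WT at 27 h, while FUM1 and MDH1 lie near 1 there and at 0.49 and 0.347 after NAR1 repression.

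The 2-oxoglutarate dehydrogenase genes ran close to each other. KGD1, the E1 component that decarboxylates 2-oxoglutarate, had ratios of 0.752, 0.791, 0.665 and 0.442 at 3, 11, 19 and 27 h. KGD2, the E2 component that transfers succinyl to coenzyme A, had 0.7, 0.705, 0.596 and 0.473. Both were near 0.7 to 0.8 for the first 11 h and more than 2-fold below the control by 27 h, and over the 6 conditions their log2 ratios differed by a root mean square of only 0.14.

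Neither slope passed (KGD1 -0.77, SE 0.24, adjusted p = 0.109, and KGD2 -0.58, SE 0.17, adjusted p = 0.1), whereas the mean WT levels did (-0.63, SE 0.09, adjusted p = 0.00552, and -0.71, SE 0.06, adjusted p = 0.00186). The subunits that complete the complex moved less. LPD1, the E3 dihydrolipoamide dehydrogenase that this complex shares with pyruvate dehydrogenase, had 0.681 at 27 h, and KGD4, a small subunit that holds E3 in the complex, had 0.636. Their mean WT levels were also lower than the control (-0.37, adjusted p = 0.0124, and -0.46, adjusted p = 0.00335).

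Both subunit transcripts of succinyl-CoA ligase, the step that makes succinate, were below the control in mean WT level, and neither had a slope that passed. LSC1, the alpha subunit, had ratios of 0.74, 0.925, 0.835 and 0.706. LSC2, the beta subunit, had 0.54, 0.763, 0.884 and 0.849. LSC2 was thus among the lowest genes at 3 h, where 1.15% of genes lay at or below it, and lay between 0.763 and 0.884 later. Its slope of 0.65 (SE 0.21, adjusted p = 0.119) and that of LSC1 (-0.11, SE 0.22, adjusted p = 0.778) did not pass, and the difference between them was not tested. The mean WT levels of LSC1 (-0.33, adjusted p = 0.0266) and LSC2 (-0.42, adjusted p = 0.012) were lower than the control.

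Fumarase and malate dehydrogenase were not low in WT cells after the first time point. FUM1, which encodes the fumarase of both mitochondria and cytosol, had ratios of 0.861, 0.903, 1.021 and 1.041. MDH1, the mitochondrial malate dehydrogenase, had 0.64 at 3 h and then 1.017, 0.971 and 1.027. MDH1 therefore shared the low first value of LSC2 and SDH1, but returned to the control level by 11 h. Neither the slopes (FUM1 0.30, adjusted p = 0.231, and MDH1 0.59, adjusted p = 0.18) nor the mean WT levels (-0.07, 95% interval -0.20 to 0.07, and -0.16, 95% interval -0.39 to 0.08) passed.

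Counted over the WT time course, 1 of the 10 genes fell with time and 0 rose, against 2.62% of all genes falling and 4.63% rising. At an unadjusted p under 0.05, limma gave 5 falling and 1 rising, where 16.2% and 13.9% of all genes did so. In mean WT level 8 of 10 were lower and 0 were higher, where 23.9% of all genes were lower and 19.8% higher. By size, 1, 0, 2 and 5 of the 10 were at least 2-fold lower at 3, 11, 19 and 27 h, where 0.927%, 0.634%, 1.79% and 2.83% of all genes were. None was 2-fold higher at any of these times, where 0.341%, 1.22%, 3.8% and 5.17% of all genes were. Ratios below 1 were found for 10, 9, 9 and 8 of the 10, against 50.8%, 51.7%, 54.3% and 55.4% of all genes. The 5 at 27 h were KGD1, KGD2, SDH1, SDH2 and SDH3. The median log2 ratio of the 10 was -0.52 at 3 h and -0.95 at 27 h, beside -0.01 and -0.06 for all genes. Without a slope in the model, which counts change with time as noise, 4 were lower in mean WT level, and with no moderation of the spread none of the 10 passed (5 at an unadjusted p under 0.05 by ordinary least squares).

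The ATP1-111 cells show the response to mtDNA loss in a strain that carries this ATP synthase allele. Because that strain is not the WT strain, the allele cannot be told apart from other differences between the strains. At 27 h the succinate dehydrogenase ratios were 0.683 for SDH1, 0.672 for SDH2, 0.748 for SDH3 and 0.973 for SDH4, all above their WT values at that time. KGD1 stood at 0.967 and KGD2 at 0.939. The remaining genes were at or just above the control, with LSC1 at 1.104, LSC2 at 1.04, FUM1 at 1.098 and MDH1 at 1.027. In this column 6 of the 10 ratios were below 1, against 53.4% of all genes, and 0 were 2-fold lower or higher, where 0.358% and 0.65% of all genes were.

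Compared with the fitted WT level at 27 h, 3 of the 10 genes were higher in ATP1-111 and 0 were lower, beside 3.09% and 4.62% of all genes. They were SDH1 (log2 difference 1.08, SE 0.22, adjusted p = 0.0488), SDH3 (1.08, SE 0.14, adjusted p = 0.0281) and KGD2 (0.91, SE 0.17, adjusted p = 0.044). KGD1 differed by 0.96 (SE 0.23) with an adjusted p of 0.0677, and SDH2 by 0.67 (SE 0.18) with 0.0862. For MDH1 the ratio was 1.027 in both genotypes, and its difference from the fitted WT level had a 95% interval of -0.71 to 0.51. For FUM1 that interval was -0.30 to 0.41. The whole ATP1-111 column was narrower than WT at 27 h, with a median absolute deviation of 0.114 against 0.279 on the log2 scale. The median difference from the fitted WT was 0.64 for the 10 genes and 0.04 for all genes. It was 0.75 for genes of the bc1 complex and cytochrome c, 0.69 for cytochrome c oxidase and 0.10 for ATP synthase, so it was not particular to the 10.

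These calls lie close to the threshold. None of the 10 passed without the 19 h or the 27 h column, with log2 hours, or with columns scaled to equal spread, under which SDH2 turned to -0.15 and SDH1 shrank to 0.16, while 5 passed without the 3 h column and 1 without the 11 h column. The share of all genes called under each of these settings is not given here, so these counts show only how the members' calls moved. Against its own control, ATP1-111 had 0 of 10 genes called in either direction, where 0.0488% of all genes were lower and 0.065% higher. At an unadjusted p under 0.05, limma gave 3 lower and 0 higher, beside 4.45% and 3.66% of all genes. The 3 were SDH1 (-0.55, SE 0.17), SDH2 (-0.57, SE 0.14) and SDH3 (-0.42, SE 0.11). All 3 were among the lowest of the column: 1.71%, 1.52% and 3.5% of genes had a ratio at or below theirs.

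NAR1 repression gave another order of the same genes. MDH1 was the lowest at a ratio of 0.347, where 1.26% of genes lay at or below it. FUM1 and SDH1 both stood at 0.49, LSC2 at 0.551 and SDH2 at 0.612. KGD2, SDH4, SDH3, LSC1 and KGD1 followed with 0.72, 0.736, 0.763, 0.777 and 0.832. All 10 ratios were below 1, against 46.7% of all genes, but the genes nearest the control here included KGD1 and SDH3, which were more than 2-fold lower in WT at 27 h.

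Of the 10, 5 were lower than their control by the limma test and 0 were higher, beside 11.2% and 13.3% of all genes. They were MDH1 (log2 level -1.53, SE 0.19, adjusted p = 0.00921), FUM1 (-1.03, SE 0.11, adjusted p = 0.00709), SDH1 (-1.03, SE 0.17, adjusted p = 0.0161), LSC2 (-0.86, SE 0.16, adjusted p = 0.021) and SDH2 (-0.71, SE 0.14, adjusted p = 0.0247). By size 3 were at least 2-fold lower and 0 higher, where 3.72% and 2.19% of all genes were. The count of lower genes was 1 with columns scaled to equal spread and 2 with no slope in the model.

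Set against the fitted WT level at 27 h, 3 genes were lower after NAR1 repression and 1 was higher, where 12.1% and 13.9% of all genes were. MDH1 was lower by the most (-1.67, SE 0.24, adjusted p = 0.0115), then FUM1 (-1.11, SE 0.14, adjusted p = 0.00868) and LSC2 (-0.76, SE 0.21, adjusted p = 0.0498). SDH3 was higher (1.10, SE 0.14, adjusted p = 0.00917). SDH1 (0.60, SE 0.22, adjusted p = 0.095), SDH2 (0.53, SE 0.18, adjusted p = 0.0854), KGD1 (0.75, SE 0.23, adjusted p = 0.066) and KGD2 (0.53, SE 0.17, adjusted p = 0.0708) had values on the same side as SDH3 without passing. Without the WT 3 h column these 4 also passed, which made 5 higher, and LSC2 missed the threshold without the 11 h column (adjusted p = 0.0699) or the 19 h column (0.125). With columns scaled to equal spread only FUM1 passed. The shares of all genes called under these alternative settings are not given here.

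**Figure D2:**
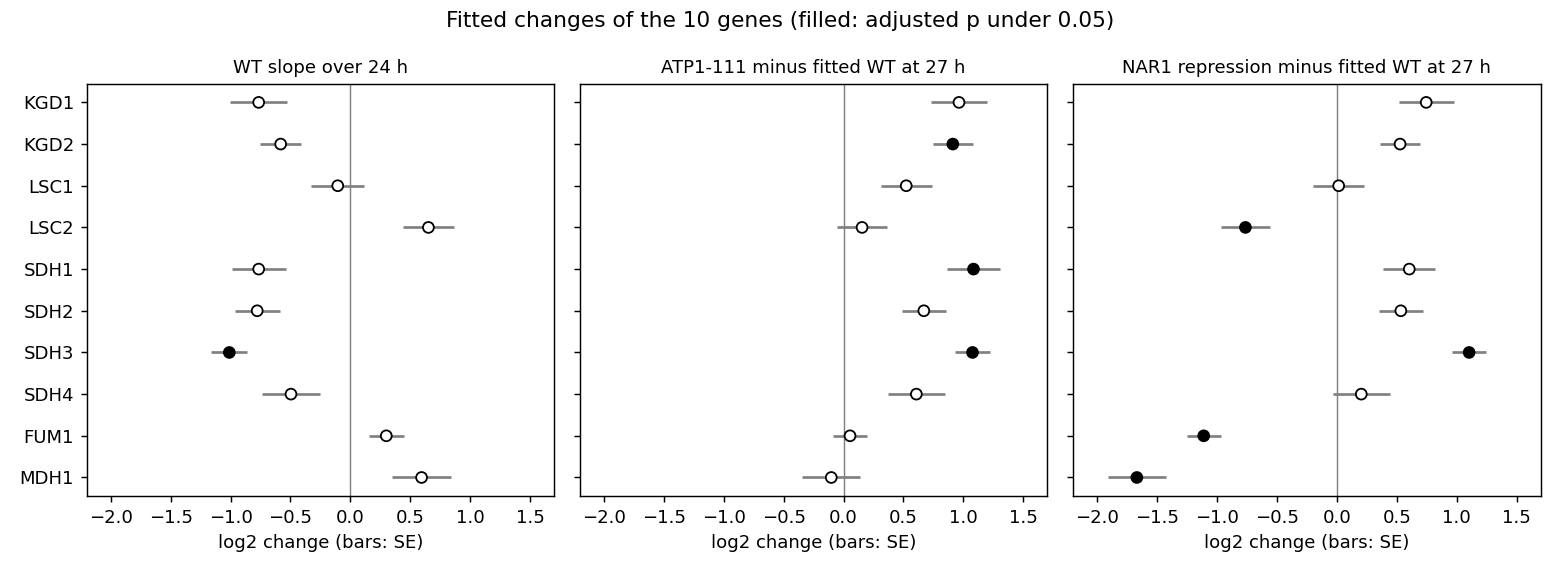
Fitted log2 change of each gene (points) with its SE (bars) for the WT slope over 24 h (left), ATP1-111 against the fitted WT level (middle) and NAR1 repression against that level (right); filled points have an adjusted p under 0.05. SDH3 is filled in all 3 panels, and FUM1 and MDH1 lie at -1.11 and -1.67 on the right.

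The 10 profiles over the 6 conditions were also compared with each other and with the whole table. By the root mean square difference of log2 ratios, KGD1 and KGD2 were each other's nearest member, as were SDH2 and SDH3 (0.20), LSC1 and SDH4 (0.16) and FUM1 and MDH1 (0.28). SDH1 was nearest to SDH2 (0.35) and farthest from FUM1 (1.06). Ranked among all genes by nearness, these partners came 3rd for SDH2, 4th for SDH1, 5th for SDH3, 8th for KGD1 and 12th for KGD2. The other pairs were less close against the table: SDH4 ranked 83rd from LSC1, LSC1 39th from SDH4, FUM1 16th from MDH1 and MDH1 241st from FUM1, and LSC2 had LSC1 as its nearest member at rank 93 (0.32). The gene nearest to SDH3 was COX5A (0.13), a cytochrome c oxidase subunit.

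Among reading frames outside the 10, the nearest to the mean profile of SDH1 to SDH4 were FAA1 (0.14), a fatty acyl-CoA synthetase, and GAS3 (0.15), a cell wall protein, followed by YCL046W, ADE13, ERG20, SOD2, ACS2, ADE6, APE4 and ERG10 (0.19 to 0.22). SOD2 encodes the mitochondrial superoxide dismutase, ADE13 and ADE6 enzymes of purine synthesis, and ERG20 and ERG10 enzymes of isoprenoid synthesis. The nearest to the mean profile of all 10 were SWC7 (0.12), PET9 (0.12), YIM1, CCW22, YBR096W, YDL023C, COX15, YLR338W, YCP4 and DHH1 (0.13 to 0.14). PET9 is the main ADP/ATP carrier of the inner membrane and COX15 is needed to make haem A. These are descriptions over 6 columns, of which 4 are WT.

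The genes next to the 10 on their chromosomes were taken from the order in the reference table. None of the 20 adjacent genes overlapped a member, and the 19 with values had ratios between 0.699 and 1.75 in WT at 27 h and between 0.743 and 1.57 after NAR1 repression. Of these 19, 0 were 2-fold lower in either, where 2.83% and 3.72% of all genes were. With shares this small, 0 of 19 does not set the adjacent genes apart from the whole table. In WT at 3 h they lay between 0.395 and 1.58, and 1 was 2-fold lower, where 0.927% of all genes were. That gene, SRX1, a sulfiredoxin gene next to MDH1, was singled out after its values were seen; it was at 0.395 at 3 h, where MDH1 had its lowest WT ratio of 0.64, and at 0.98 after NAR1 repression, where MDH1 was at 0.347.

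In the first part of the cycle, 2 transcripts lay far above the control in WT cells. IDH1 and IDH2, the subunits of the mitochondrial isocitrate dehydrogenase that makes 2-oxoglutarate, started at ratios of 1.07 and 1.01 at 3 h. IDH1 then stood at 3.81, 4.87 and 5.39, and IDH2 at 3.22, 2.91 and 2.96. From 11 h on these transcripts were about 3-fold to 5-fold above the control, while KGD1 and KGD2, which act on their product, were below it. The mean WT levels of IDH1 (1.69, SE 0.20, adjusted p = 0.00338) and IDH2 (1.20, SE 0.21, adjusted p = 0.00969) were higher than the control, and their slopes did not pass (adjusted p = 0.0692 and 0.178).

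In ATP1-111 cells IDH1 and IDH2 were at 2.77 and 2.89, and after NAR1 repression at 1.4 and 1.21. IDH1 was lower after NAR1 repression than in the fitted WT (-2.31, SE 0.52, adjusted p = 0.0321). ACO1, the aconitase and an iron-sulfur enzyme, was at 0.727 in WT at 27 h, 2.06 in ATP1-111 and 0.498 after NAR1 repression, the last lower than its control (-1.01, SE 0.26, adjusted p = 0.0475). CIT1, the mitochondrial citrate synthase, shared the low 3 h value of MDH1 and LSC2 at 0.624, was at 1.31 in WT at 27 h and at 0.707 after NAR1 repression. CIT3, a second mitochondrial citrate synthase, was higher in mean WT level (0.45, SE 0.10, adjusted p = 0.0201) with a ratio of 1.86 at 27 h. IDP1, the NADP-dependent mitochondrial isocitrate dehydrogenase, was lower in mean WT level (-0.21, SE 0.06, adjusted p = 0.0409) and, at 0.653, after NAR1 repression (-0.61, SE 0.12, adjusted p = 0.0252). Over 6 genes of the first steps, 3 were higher and 1 lower in mean WT level, beside 19.8% and 23.9% of all genes, and 2 were lower and 0 higher after NAR1 repression, beside 11.2% and 13.3%.

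**Figure D3:**
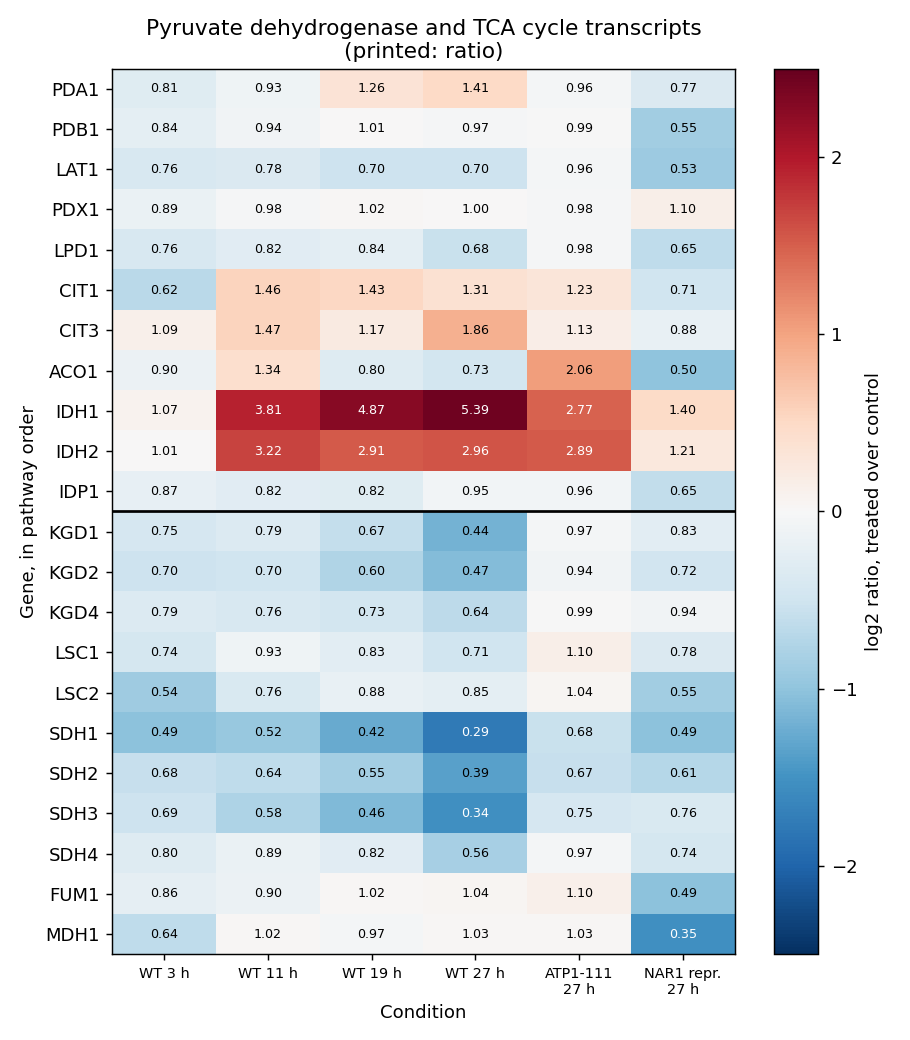
Log2 ratio (colour) and ratio (printed) of pyruvate dehydrogenase and TCA cycle genes in pathway order, with the 6 conditions in columns; the black line separates the first steps from the late steps and LPD1 is shared by both dehydrogenase complexes. IDH1 and IDH2 reach 5.39 and 2.96 in WT at 27 h, and SDH1, SDH3 and SDH2 have the lowest values in that column at 0.293, 0.344 and 0.39.

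In pyruvate dehydrogenase, which feeds the cycle, 4 subunit genes were listed apart from LPD1. After NAR1 repression 2 of the 4 were lower than their control and 0 higher, beside 11.2% and 13.3% of all genes. PDB1, the E1 beta subunit, had a ratio of 0.974 in WT at 27 h and 0.545 after NAR1 repression (-0.88, SE 0.11, adjusted p = 0.0108). LAT1, the E2 subunit, had 0.702 and 0.53 (-0.92, SE 0.11, adjusted p = 0.00882). PDA1, the E1 alpha subunit, rose with time in WT to 1.41 (0.85, SE 0.16, adjusted p = 0.0407) and was at 0.774 after NAR1 repression. PDX1, which binds E3, was at 1.1. LPD1, the E3 that serves both complexes, was at 0.645 and also lower than its control (-0.63, SE 0.14, adjusted p = 0.0319).

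Among 7 sequence relatives and enzymes of the same reactions elsewhere in the cell, 2 were lower and 1 higher in mean WT level, beside 23.9% and 19.8% of all genes. SDH9, SHH3 and SHH4, the relatives of SDH1, SDH3 and SDH4, had ratios of 0.872, 0.998 and 0.822 in WT at 27 h. SDH9 was at 0.66 at 19 h and was lower in mean WT level (-0.33, SE 0.09, adjusted p = 0.0309). After NAR1 repression SHH3 was higher than its control at 1.78 (0.83, SE 0.13, adjusted p = 0.0134) and SHH4 lower at 0.523 (-0.94, SE 0.21, adjusted p = 0.0306). How far the array's probes tell such relatives apart was not tested. FRD1, a soluble fumarate reductase that runs the succinate step backwards, rose in WT from 0.889 to 2.03 (1.24, SE 0.19, adjusted p = 0.0316), was the gene of this list with a higher mean WT level (0.52, adjusted p = 0.00511) and was lower than the fitted WT in ATP1-111 at 1.085 (-1.03, SE 0.19, adjusted p = 0.0434). MDH3, the peroxisomal malate dehydrogenase, was at 0.864 in WT at 27 h and 0.627 after NAR1 repression (-0.67, SE 0.10, adjusted p = 0.0143), and its mean WT level was lower than the control (-0.23, SE 0.05, adjusted p = 0.0211). MDH2, the cytosolic one, was at 1.795 in WT at 19 h, 0.948 at 27 h and 1.51 after NAR1 repression.

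The 5 measured assembly factors of succinate dehydrogenase lay on both sides of the control. SDH5, which helps to attach FAD to SDH1, was at 1.26 in WT at 27 h, SDH8 at 1.32, TCM62 at 1.14, FLX1 at 0.766 and SDH7 at 0.706. Their slopes had limma adjusted p-values between 0.0913 and 0.616 and their mean WT levels between 0.0586 and 0.391, none of which passed. By limma's unadjusted p under 0.05, 1 slope fell and 2 rose, beside 16.2% and 13.9% of all genes. In mean WT level 2 were lower and 0 higher in this way, beside 29.6% and 24.3% of all genes. FLX1, a mitochondrial carrier linked to FAD, was lower than its control after NAR1 repression at 0.648 (-0.63, SE 0.11, adjusted p = 0.0182).

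Carriers of TCA intermediates were mixed. OAC1, the oxaloacetate carrier, had ratios of 0.832, 0.411, 0.216 and 0.297 in WT at 3, 11, 19 and 27 h and 1.48 after NAR1 repression, higher than in the fitted WT (2.75, SE 0.47, adjusted p = 0.0167). YHM2, a citrate and 2-oxoglutarate carrier, was at 0.654 in WT at 27 h and 0.433 after NAR1 repression (-1.21, SE 0.25, adjusted p = 0.0259). ODC1, a 2-oxodicarboxylate carrier, was at 0.862 and 0.594 (-0.75, SE 0.11, adjusted p = 0.013), and its relative ODC2 at 0.554 and 0.881. SFC1, the succinate and fumarate carrier, was at 1.45 and 0.868, lower after NAR1 repression than in the fitted WT (-0.68, SE 0.15, adjusted p = 0.0285). In all 4 of 7 carriers were lower in mean WT level, beside 23.9% of all genes, and 2 after NAR1 repression, beside 11.2%, with 0 higher in both.

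A further list held the genes of pyruvate carboxylase, malic enzyme and the glyoxylate cycle. The pyruvate carboxylase genes PYC1 and PYC2 had ratios of 0.528 and 0.492 after NAR1 repression (adjusted p = 0.00835 and 0.00745) and 0.969 and 0.609 in WT at 27 h. MAE1, the mitochondrial malic enzyme, was at 0.471 in WT and 0.542 after NAR1 repression, against 1.09 in ATP1-111 (ATP1-111 minus the fitted WT 1.42, SE 0.26, adjusted p = 0.0438). CIT2, the peroxisomal citrate synthase and a textbook retrograde target, rose in WT from 1 to 4.4 (2.01, SE 0.28, adjusted p = 0.0262) and was at 1.18 in ATP1-111 and 1.23 after NAR1 repression. Of these 6 genes, which include the glyoxylate enzymes ICL1 and MLS1, 3 were lower and 0 higher than their control after NAR1 repression, beside 11.2% and 13.3% of all genes.

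HAP4, the regulatory subunit of the Hap2/3/4/5 activator, had ratios of 0.581, 2.08, 2.32 and 1.26 in WT at 3, 11, 19 and 27 h, 1.22 in ATP1-111 and 0.345 after NAR1 repression. HAP4 was below 1 in WT at 3 h and after NAR1 repression, where all 10 genes were too, beside 50.8% and 46.7% of all genes. It was above 2 at 11 and 19 h, where 9 of the 10 were below 1 each time, beside 51.7% and 54.3% of all genes. How HAP4 relates to the 10 genes was not tested. None of its contrasts passed (adjusted p between 0.0667 and 0.942), and the SE of its slope was 0.81. HAP1, a haem-responsive activator, rose in WT to 2.42 (1.24, SE 0.18, adjusted p = 0.0286). HAP2, HAP3 and HAP5, the remaining subunits, stayed between 0.891 and 1.19 in the WT columns, and HAP5 was lower than its control after NAR1 repression at 0.668 (-0.58, SE 0.16, adjusted p = 0.0493).

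Succinate dehydrogenase was also set beside the other respiratory complexes. In WT at 27 h the median log2 ratio was -1.45 for SDH1 to SDH4, -1.06 for the 11 genes of the bc1 complex and cytochrome c, -1.08 for 9 nuclear cytochrome c oxidase genes and -0.33 for 13 ATP synthase genes. After NAR1 repression these medians were -0.58, -0.10, -0.20 and -0.01. In that column 2 of the 4 succinate dehydrogenase genes, 1 of 11, 0 of 9 and 0 of 13 were lower than their control by the limma test, beside 11.2% of all genes. With limma's unadjusted p under 0.05, these counts were 3, 1, 2 and 0, beside 18.5% of all genes. At an adjusted p under 0.05, 8 of 11 bc1 and cytochrome c genes and 4 of 9 cytochrome c oxidase genes were higher after NAR1 repression than in the fitted WT, against 1 of the 4 for succinate dehydrogenase and 13.9% of all genes; whether these shares differ was not tested. CYC7, the isoform of cytochrome c made with little oxygen, was lower than its control after NAR1 repression at 0.294 (-1.77, SE 0.20, adjusted p = 0.00821).

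**Figure D4:**
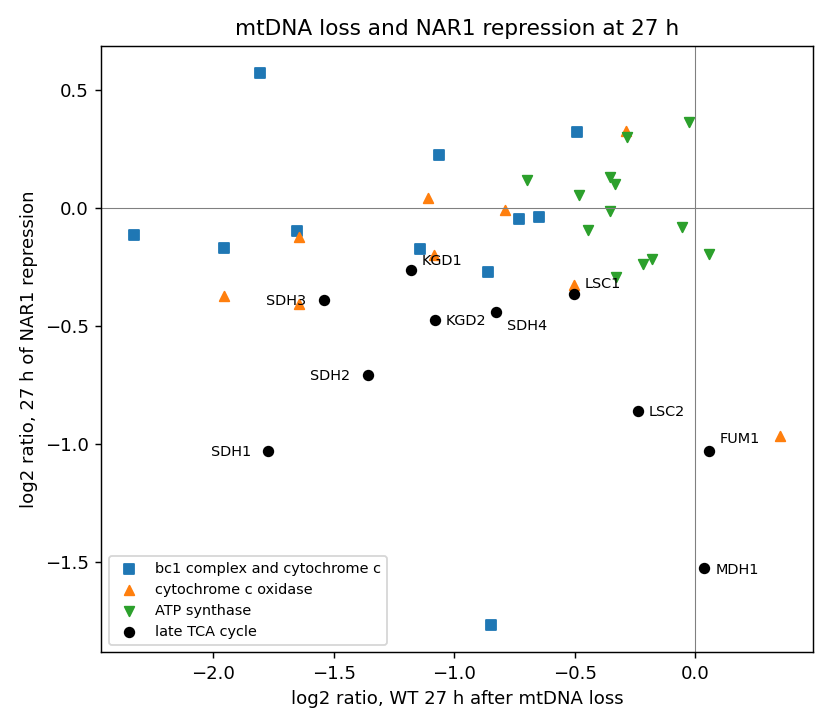
Log2 ratio in WT 27 h after mtDNA loss (x axis) against that after 27 h of NAR1 repression (y axis), for the late TCA cycle (black, named) and nuclear genes of the bc1 complex with cytochrome c, cytochrome c oxidase and ATP synthase. MDH1 and FUM1 lie at the right with low values on the y axis (-1.53 and -1.03), and SDH1 is low on both axes (-1.77 and -1.03).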

How the data were processed

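Transcript levels were measured on 2-colour arrays with RNA of treated and control cells. An acid phenol extract of total RNA was primed with oligo(dT), and the cDNA was coupled to Cy3 or Cy5, per the labels' protocols. The deposited values were linear ratios, which the authors averaged over 6 arrays in both dye orientations (5 for ATP1-111), per the labels. The sources used here do not name the scanner, the background correction, the normalization or the kind of average, or say whether WT time points shared a control RNA. A shared control would make the tests of levels too lenient. The direction, treated over control, was read from the titles.

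From 6259 rows, 28 control rows were left out, ratios were taken to log2, and both spots of 13 genes were averaged. Of the 6205 reading frames left, 5705 matched the reference gene table (R64) for symbols. The 6151 with values in all 6 columns were fitted in limma 3.58.1 (R 4.3.3) with a WT level, a WT slope, an ATP1-111 level and a NAR1 level (2 residual and 3.35 prior degrees of freedom). The mean WT level is the line at 15 h. The tests were two-sided. Data simulated from the fitted spread were run for the WT slope and the ATP1-111 level only. Every column was drawn there with the same spread, so that run cannot check the spread borrowed for single columns, the straight line or a shared control. Alternatives were the time scale, the column scaling, the moderation, the genes tested, a model with no slope and leaving out each WT column. The number of arrays limits the precision.

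The members and gene lists were chosen with earlier results of these data known. The rule named all 10 members, list genes past a test or 2-fold from 1 or with the largest mean values, and the 10 frames with the smallest root mean square difference from 2 mean profiles. Of the respiratory lists, counts and medians are given, and 1 gene of the first TCA steps is not reported here. Promoter sequences were not used here, so the planned motif search was not run.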

Additional observations from a re-analysis of the deposited data

Results flagged for a closer look

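By the limma test of the difference itself, 3 of the 10 genes were higher in ATP1-111 than in the fitted WT at 27 h. Of the 10, 0 were lower, beside 3.09% of all genes higher and 4.62% lower. ATP1-111 is 1 deposited average from another strain, and the spread for its test was borrowed from the scatter about the WT line. The calls lay close to the threshold, and the number of members higher ranged from 0 to 5 over the alternative settings. On the log2 scale ATP1-111 lay above the fitted WT level by 1.08 for SDH1, by 1.08 for SDH3 and by 0.91 for KGD2. From the deposited ratios alone, without the line, ATP1-111 over WT at 27 h was 2.33 for SDH1, 2.17 for SDH3 and 1.99 for KGD2. KGD1 had a value of the same size, 2.19, without passing.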

How the results depend on the processing

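No paired analysis was possible because each group is 1 deposited average and the labels carry no replicate numbers. With 2 residual degrees of freedom, calls are sensitive to the spread: by ordinary least squares 0 members passed in any contrast (6 for NAR1 repression and 5 for the mean WT level at an unadjusted p under 0.05). The single falling slope became 0 with log2 hours, with columns scaled to equal spread, and without any 1 WT column (lowest and highest 0). Members lower in mean WT level numbered 4 with no slope in the model, and 6 to 8 when 1 WT column was left out. Members higher in ATP1-111 than in WT numbered 0 with log2 hours or scaled columns and 0 to 5 with 1 column left out, and scaling gave 2 members lower in ATP1-111 than its control. Members lower after NAR1 repression numbered 1 with scaled columns, 2 with no slope and 5 to 7 with 1 column left out. Against the fitted WT, those lower numbered 1 and those higher 0 with scaled columns, with ranges of 2 to 3 and 1 to 5 when 1 column was left out. At a threshold of 1.5-fold in place of 2-fold, 3, 3, 5 and 6 members were lower in WT at 3, 11, 19 and 27 h and 5 after NAR1 repression. With columns scaled to equal spread, the 2-fold counts were 2, 1, 1 and 2 in WT at 3, 11, 19 and 27 h, 1 in ATP1-111 and 1 after NAR1 repression. The shares of all genes under these alternative settings are not given in this report. The counts therefore show how the members' calls moved and cannot be read as an excess over all genes. Direction turned only where the main value had not passed. The LSC1 slope was 0.015 with log2 hours, 0.22 with scaled columns and -0.58 to 0.26 with 1 WT column left out. The SDH1 slope was 0.12 with scaled columns, and the SDH4 slope -0.99 to 0.043 with 1 column left out. The MDH1 mean WT level was -0.26 to 0.0032 with 1 column left out. ATP1-111 minus WT was -0.15 for SDH2 with scaled columns, and with 1 column left out -0.17 to 0.25 for LSC2 and -0.34 to 0.025 for MDH1. NAR1 repression minus WT for LSC1 was -0.042 with log2 hours, -0.075 with centred columns, -0.10 with scaled columns and -0.27 to 0.12 with 1 column left out, and for SDH4 -0.21 to 0.32 with 1 column left out. The causes were not tested. Centred columns, robust moderation and the reading frames of the reference table left every count of called members within 1.5 times of its value. Spot brightness was not used here, so how depth limits single values is unknown.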
